A study of Mus musculus with 22 samples.

Results

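Absorptive progenitors (AbsPro) and secretory progenitors (SecPDG) are the daughter populations that a colon stem cell can enter when it leaves the crypt base, and their transcriptomes were compared gene by gene. The comparison held 7 of the 22 libraries of the series, 3 of AbsPro and 4 of SecPDG, chosen by their sample titles. All cells came from colons of untreated wild-type male C57BL/6N mice aged 5 to 7 weeks, which were dissociated with EDTA and mechanical force and sorted as live Cd31-, Cd45-, Epcam+ epithelium. By the labels AbsPro were gated as Cd44med/hi, Cd24low, Ckit- and SecPDG as Cd44hi, Cd24med, Ckitmed, while the text of the study gives Cd44 as medium for both. By the study's methods the name SecPDG stands for a gate that holds secretory progenitors together with deep crypt secretory cells and possibly goblet cells. By the same methods the replicates are independent mice and sorts, with 1 mouse per AbsPro library and several pooled mice per SecPDG library. RNA was amplified with a low-input kit, and 16614350 to 22157285 reads per AbsPro library and 15314543 to 18628984 per SecPDG library were counted on genes. The 3 libraries of stem cells (Stem, gated Cd44highest, Cd24low, Ckit-) are given below as the level in the cells that precede both populations.

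In the intestinal crypt, a daughter of a stem cell that displays Notch ligands keeps its neighbours from the same fate, which is called lateral inhibition. Cells in which Notch is active keep Hes1, the repressor of Atoh1, and become absorptive, while cells that escape Notch express Atoh1 and take the secretory path. Absorptive cells of the colon take up salt, water and short chain fatty acids and metabolise steroids and foreign compounds, whereas secretory cells make mucus and antimicrobial proteins, which loads their endoplasmic reticulum (ER) and Golgi.

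The labels of both populations were checked against marker genes. The 8 enterocyte markers (among them Car1, Slc26a3 and Krt20) summed to 67629.6, 71639.8 and 103110.0 normalized counts in the AbsPro libraries and to 11328, 17321, 11594 and 18836 in the SecPDG libraries. A normalized count is a read count scaled to the mean effective library size. The 8 goblet cell markers (among them Muc2, Spdef and Retnlb) summed to 198365, 84347.7 and 254234 in AbsPro and to 726303, 3071540.0, 730139 and 1232930.0 in SecPDG. The sums did not overlap on either list. Car1 made up most of each AbsPro sum of enterocyte markers. Of the 8 enterocyte markers, 6 were called higher in AbsPro by the test described below and 0 in SecPDG, beside 1.01% and 1.21% of all genes. In 7 of them all AbsPro libraries lay above SecPDG and in 1 the reverse held, beside 8.38% and 7.39% of all genes. Of the 8 goblet markers, 3 were called higher in SecPDG and 0 in AbsPro. AbsPro nevertheless held goblet transcripts in every library, and AbsPro 2 had the fewest. The enteroendocrine cell (EEC) markers were also lowest in AbsPro 2, with sums of 20576, 4554.5 and 17434 in AbsPro against 2447.95 to 6738.95 in SecPDG. All enteroendocrine markers had counts in both groups. These sums are given because sorted cells of other types can move with the results below, and their part in them was not tested. In bulk libraries, fewer cells of a type and less RNA per cell cannot be told apart. The count tables of SecPDG are named in another way than those of AbsPro and Stem, so a difference in handling, if any, cannot be told apart from cell type.

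Across the transcriptome, 506 of 22781 genes tested differed between AbsPro and SecPDG, which is 2.22% of them. Of these, 230 genes (1.01%) were higher in AbsPro and 276 (1.21%) were higher in SecPDG. A gene was called when edgeR's quasi-likelihood test, fitted on all 22 libraries, gave a Benjamini-Hochberg adjusted p under 0.01 and its mean over the 22 libraries was at least 50 normalized counts. Among the 13188 genes that reached this mean the shares were 3.84% in all, 1.74% higher in AbsPro and 2.09% higher in SecPDG. The 22-library fit carries the spread of the mature cell types into the test. Fitted on the 7 libraries alone, the test called 1315 of 13841 genes (9.5%), 497 (3.59%) higher in AbsPro and 818 (5.91%) higher in SecPDG, and 468 of the 506 genes were among them. Leaving out AbsPro 2 left 279 calls, 176 higher in AbsPro and 103 higher in SecPDG. AbsPro 2 had a count for 13145 genes, against 17169 and 18419 in AbsPro 1 and 3, and 12.8% of its gene counts fell on the ribosomal RNA gene Rn45s, against 6.38% and 4.12%. Its Spearman correlation over genes was 0.964 with AbsPro 1 and 0.955 with AbsPro 3, which had 0.985 with each other. The part of these differences in the results was not tested. Without SecPDG 3, 152 genes were higher in AbsPro. At an unadjusted p under 0.05 in the 22-library fit, 1499 of the 22781 genes were higher in AbsPro and 2051 in SecPDG. DESeq2, an alternative test, called 576 of 23674 genes higher in AbsPro and 892 in SecPDG. Scaled by library totals in place of edgeR's TMM factors, 932 genes were called, 542 of them (58.2%, against 45.5% in the main fit) higher in AbsPro. Over the 13188 genes above the minimum mean, the median log2 difference, AbsPro minus SecPDG, was 0.21 on that scale and 0.04 with TMM. Log2 fold changes below are SecPDG minus AbsPro, so that positive values are higher in SecPDG.

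**Figure D1:**
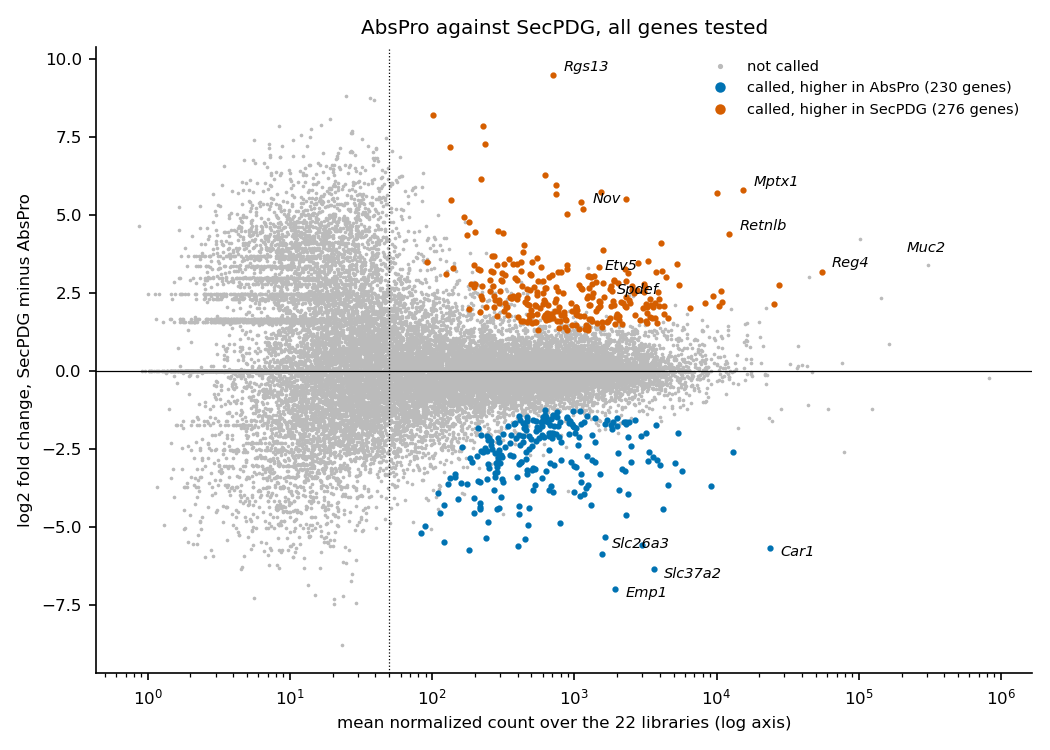
Each point is 1 of the 22781 genes tested, by its mean normalized count over the 22 libraries (log axis) and its log2 fold change, SecPDG minus AbsPro. The 230 genes called higher in AbsPro (blue) and the 276 called higher in SecPDG (orange) lie to the right of the dotted line at a mean of 50, with Emp1 and Car1 among the lowest blue points and Rgs13 the highest orange one.

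Among called genes whose groups did not overlap, those with the largest differences in favour of AbsPro were Emp1, Slc37a2, Slc26a3, Ambp and Car1. Emp1 (ENSMUSG00000030208, chromosome 6 from 135362545 to 135383173), a membrane protein of epithelial cells, had 3226, 2863 and 6370.0 normalized counts in the 3 AbsPro libraries and 29.3, 47.2, 18.5 and 37.2 in the 4 SecPDG libraries (log2 fold change -6.98, SE 0.59, adjusted p = 3.11e-09). Slc37a2 (ENSMUSG00000032122, chromosome 9 from 37227585 to 37255738), a sugar phosphate exchanger of the ER, had 8656, 11721 and 13599 in AbsPro and 14.2, 189, 133 and 215 in SecPDG (log2 fold change -6.36, SE 0.72, adjusted p = 4.58e-07). Car1 (ENSMUSG00000027556, chromosome 3 from 14766216 to 14808368), the cytosolic carbonic anhydrase of colonocytes, was the most abundant of them, with 55434, 62075 and 84906 in AbsPro and 1024, 1359, 1022 and 1935 in SecPDG (log2 fold change -5.66, SE 0.69, adjusted p = 1.43e-06). For each of these genes the lowest AbsPro library lay above the highest SecPDG library, and SecPDG also lay below the Stem mean, which was 515 ± 142 (SD, n = 3) for Emp1, 2214 ± 728 (SD, n = 3) for Slc37a2 and 15775 ± 5369.7 (SD, n = 3) for Car1. The rest of the 10 largest changes in this direction were those of Slc26a3, Ambp, Aqp8, Cyp2c55, Sptssb, Mall and Slc51a, with log2 fold changes from -5.86 to -5.36. Aqp8 alone of these 10 lost its call when a library was left out, namely without AbsPro 3 (adjusted p = 0.0116) or SecPDG 1 (adjusted p = 0.0114).

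Among called genes whose groups did not overlap, the largest differences in favour of SecPDG were of 2 kinds. Rgs13, Hmx3, Gnat3, Speg and Pou2f3 were all but absent from AbsPro and low in SecPDG. Rgs13, a regulator of G protein signaling, was at 0 in every AbsPro library and had 131, 37.3, 108 and 73.5 in SecPDG, at least 108-fold higher (adjusted p = 1.58e-07). The bound sets AbsPro at a floor of 3 counts over the group. Hmx3, a homeobox factor, was likewise at 0 in AbsPro and had 18.9, 29.8, 46.3 and 17.6, at least 34.9-fold higher (adjusted p = 7.29e-06), and Speg, with 25.5, 34.8, 5.90 and 5.88 (at least 22.3-fold higher, adjusted p = 0.00216), lost its call without AbsPro 1 (adjusted p = 0.0241), AbsPro 2 (adjusted p = 0.0189) or AbsPro 3 (adjusted p = 0.0185). Clps, Itln1, Mptx1 and Ang4, which encode secreted proteins, reached higher levels. Mptx1 (ENSMUSG00000026531, chromosome 1 from 174330518 to 174332873), a mucosal pentraxin, rose to 23768, 28825, 28524 and 28051 in SecPDG from 942, 333 and 198 in AbsPro (log2 fold change 5.79, SE 1.05, adjusted p = 0.000447). Clps, pancreatic colipase, had 14.1, 1.63 and 2.81 in AbsPro and 255, 1236, 86.8 and 271 in SecPDG (log2 fold change 6.15, SE 1.25, adjusted p = 0.00172) and was not called without AbsPro 2 (adjusted p = 0.0232), AbsPro 3 (adjusted p = 0.0212) or SecPDG 2 (adjusted p = 0.0107). For Itln1, Clps and Ang4, SecPDG 2 stood far above the other SecPDG libraries, and all of the latter still exceeded AbsPro.

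Among the genes that pass the Notch signal between neighbours, 3 ligands were higher in SecPDG. Dll1 (ENSMUSG00000014773, chromosome 17 from 15367354 to 15376872), a Delta ligand, had 172, 216 and 239 normalized counts in Stem, 714, 399 and 882 in AbsPro and 2556, 3088, 2515 and 2775 in SecPDG (log2 fold change 2.04, SE 0.36, adjusted p = 0.000337). Dll4 (ENSMUSG00000027314, chromosome 2 from 119325784 to 119335962) had 453, 239.9 and 374 in AbsPro and 808, 1718, 1120.4 and 1339 in SecPDG (log2 fold change 1.81, SE 0.41, adjusted p = 0.00505). The secreted Notch-binding protein Nov, also known as Ccn3 (ENSMUSG00000037362, chromosome 15 from 54745702 to 54754039), was near the Stem level in AbsPro, with 51.6, 81.3 and 41.3, and reached 2583, 896, 3123 and 1808 in SecPDG (log2 fold change 5.17, SE 0.67, adjusted p = 5.01e-06). In none of the 3 genes did the groups overlap, and AbsPro 2 was the lowest library for Dll1 and Dll4. The calls of Dll1 and Nov held whichever of the 7 libraries was omitted, while Dll4 lost its call without AbsPro 2 (adjusted p = 0.0643), AbsPro 3 (adjusted p = 0.0125), SecPDG 2 (adjusted p = 0.0126) or SecPDG 4 (adjusted p = 0.014). Jag1, a Serrate-type ligand, ran the other way, with 808, 588 and 719 in AbsPro and 302, 423, 295 and 394 in SecPDG, and was not called (adjusted p = 0.0779; fit of the 7 libraries alone, 0.00575, a call). Of the 6 ligands listed, 3 were thus called higher in SecPDG, beside 1.21% of all genes, and none in AbsPro.

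The receiving side of the pathway differed less. Of 23 Notch receptors and processing genes, 1 was called, higher in SecPDG, beside 1.21% of all genes. The list median was 0.02 (-0.16 when scaled by library totals), beside 0.00 over all genes tested. That gene was Lfng, the Fringe glycosyltransferase that tunes receptor binding, with 367, 435 and 301 in AbsPro and 782, 1294, 1202 and 1067 in SecPDG (log2 fold change 1.56, SE 0.36, adjusted p = 0.00582), and the call held, among the 7 omissions of a single library, only without SecPDG 1 (adjusted p = 0.0323 without AbsPro 3). Notch1 had 5961, 4676 and 5054 in Stem, 2148, 2435 and 1872 in AbsPro and 1179.9, 1053, 1813 and 1492 in SecPDG and was not called (adjusted p = 0.357). Hes1, the effector that represses Atoh1, had 1338, 1357 and 1468 in Stem, 952, 1157 and 929 in AbsPro and 343, 598, 545 and 667 in SecPDG. Its libraries thus fell into 3 steps without overlap, but the difference between the progenitors did not pass the test (log2 fold change -0.91, SE 0.40, adjusted p = 0.253; 7 libraries alone, adjusted p = 0.0105). Nrarp, a feedback inhibitor of Notch, had 334, 588 and 449 in AbsPro and 238, 208, 168 and 307 in SecPDG and was not called (adjusted p = 0.208). None of the 6 Notch targets was called by edgeR in either fit or by DESeq2, and at an unadjusted p under 0.05, 2 were higher in AbsPro and 1 in SecPDG.

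**Figure D2:**
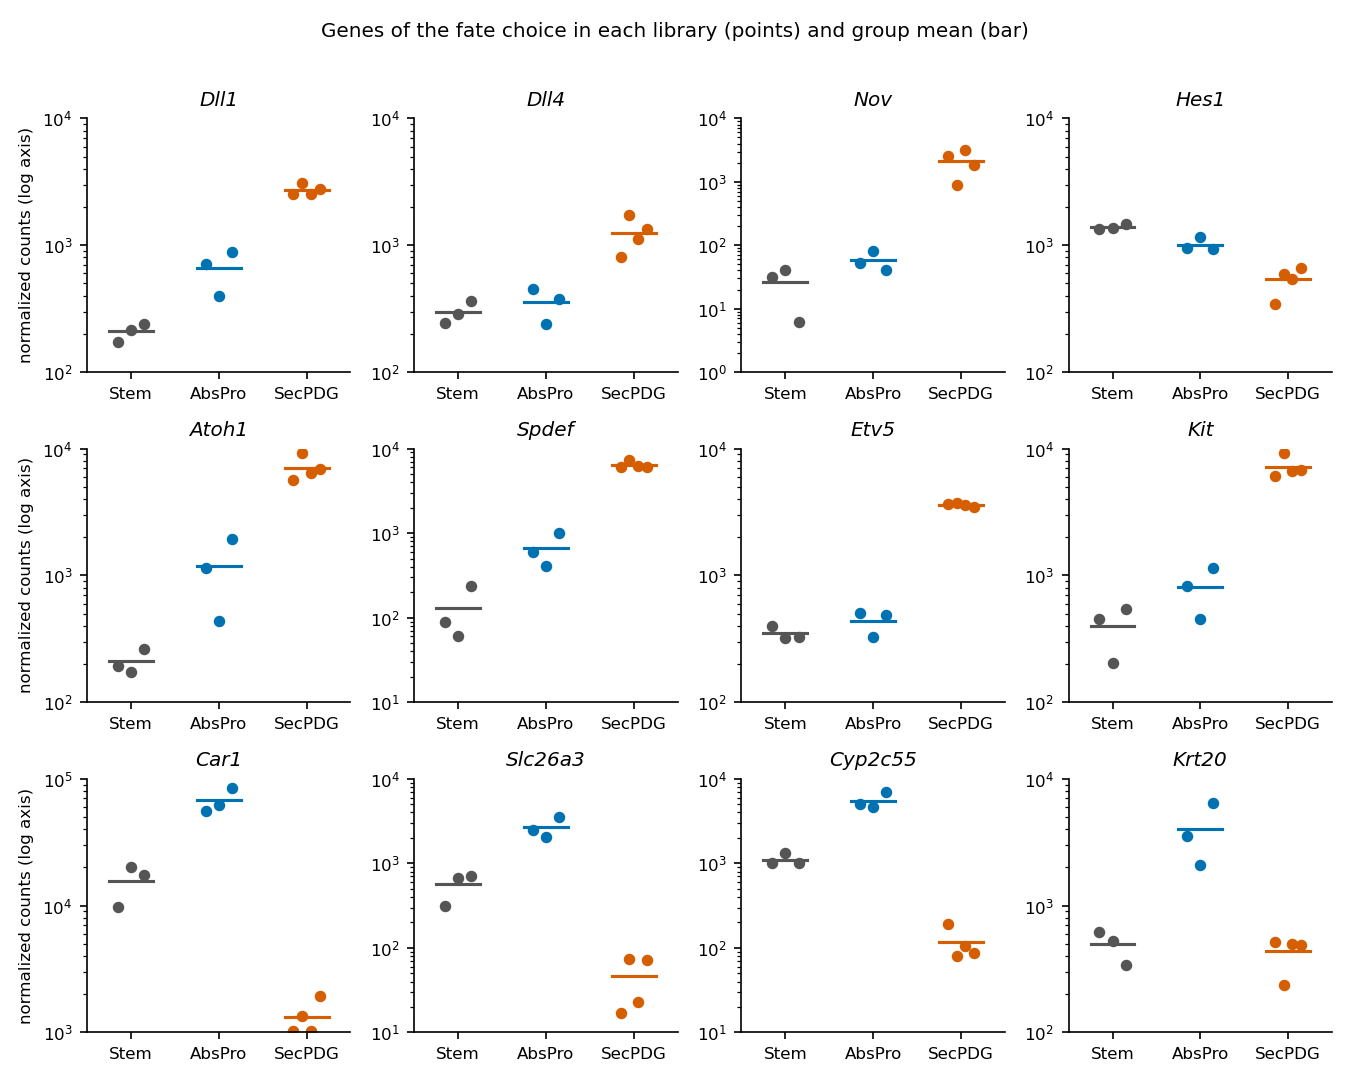
Normalized counts (log axis) of 12 genes in each library of Stem (grey), AbsPro (blue) and SecPDG (orange), with the group mean as a bar. SecPDG libraries lie above all AbsPro libraries for Dll1, Dll4, Nov, Atoh1, Spdef, Etv5 and Kit and below them for Hes1, Car1, Slc26a3, Cyp2c55 and Krt20.

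Of 29 transcription factors of secretory cells, 8 were called higher in SecPDG, beside 1.21% of all genes, and none in AbsPro. In 17 the SecPDG libraries all lay above AbsPro, beside 7.39% of all genes. Without AbsPro 2, 3 calls were left. Atoh1 (ENSMUSG00000073043, chromosome 6 from 64729125 to 64731245), the master factor of the secretory lineage, had 194, 174 and 265 in Stem, 1144, 440.0 and 1946 in AbsPro and 5642, 9207, 6471 and 6896 in SecPDG (log2 fold change 2.58, SE 0.57, adjusted p = 0.00435). AbsPro therefore carried Atoh1 above every Stem library, and the call against SecPDG was lost without AbsPro 1 (adjusted p = 0.0222) or AbsPro 2 (adjusted p = 0.0618). Spdef (ENSMUSG00000024215, chromosome 17 from 27714352 to 27728955), a factor of goblet cell maturation downstream of Atoh1, had 596, 414 and 1014 in AbsPro and 6136, 7246, 6188 and 6024 in SecPDG (log2 fold change 3.25, SE 0.47, adjusted p = 2.52e-05). Cbfa2t3 (ENSMUSG00000006362, chromosome 8 from 122625141 to 122699109), a corepressor of the ETO family, had 847, 404 and 876 in AbsPro and 5665, 7999, 5675 and 5383 in SecPDG (log2 fold change 3.12, SE 0.42, adjusted p = 8.76e-06). The calls of Spdef and Cbfa2t3 held at every omission of a single library. Gfi1, the zinc finger repressor that acts after Atoh1, differed by 2.56 (adjusted p = 0.00127), and Foxa3 by 2.05 (adjusted p = 0.00227). Gfi1 was not called without AbsPro 1 (adjusted p = 0.0149) or AbsPro 2 (adjusted p = 0.0142), nor Foxa3 without AbsPro 1 (adjusted p = 0.0119) or AbsPro 2 (adjusted p = 0.0237). The ER-anchored factors Creb3l1 and Creb3l4 differed by 2.19 and 2.77 (adjusted p = 0.00253 and 0.00227). Creb3l1 was not called without AbsPro 2 (adjusted p = 0.034), and Creb3l4 not without AbsPro 1 (adjusted p = 0.0132) or AbsPro 2 (adjusted p = 0.0381).

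Some factors of the secretory programme did not pass the test. Xbp1, the factor of the unfolded protein response, had 2042, 2098 and 2175 in AbsPro and 4656, 6921, 5307 and 6497 in SecPDG (log2 fold change 1.47, SE 0.41, adjusted p = 0.0305), and Bhlha15, the Mist1 factor of secretory cell architecture, had 112, 171 and 56.3 in AbsPro and 643, 935, 592 and 427 in SecPDG (log2 fold change 2.52, SE 0.68, adjusted p = 0.0249). Neither gene overlapped between groups, and both were called in the fit of the 7 libraries alone (adjusted p = 1.08e-05 and 0.000825). Klf4, which goblet cells require, overlapped between the groups, with 6458, 5278 and 8003 in AbsPro and 3999, 7868, 4187 and 5284 in SecPDG against 1511 ± 211 (SD, n = 3) in Stem.

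Pou2f3, the lineage factor of tuft cells, stood apart from this group. It had 2.12, 0.813 and 1.88 in AbsPro and 116, 134, 124 and 165 in SecPDG (log2 fold change 6.28, SE 0.90, adjusted p = 1.88e-05). Beside 1.21% of all genes, 6 of 11 tuft markers tested were called higher in SecPDG, namely Pou2f3, Rgs13, Gnat3, Plcb2, Dclk1 and Avil. The levels were low. The tuft markers summed to 135, 9.76 and 208 in the AbsPro libraries and to 955 to 1354 in SecPDG, with Gnat3 and Rgs13 at 0 in all AbsPro libraries. In the series' sorted tuft cells Dclk1 averaged 21903 normalized counts, against 153 ± 115 (SD, n = 4) in SecPDG, and Pou2f3 averaged 2353. Dclk1 lost its call without AbsPro 2 (adjusted p = 0.0133), and Avil without AbsPro 1 (adjusted p = 0.0119), AbsPro 2 (adjusted p = 0.0124) or SecPDG 3 (adjusted p = 0.0132).

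The transcription factors of absorptive and intestinal identity gave the opposite picture on a smaller scale. Of 39 listed, 4 were called higher in AbsPro, beside 1.01% of all genes, none in SecPDG, and the list median was -0.48. In 16 all AbsPro libraries lay above SecPDG, beside 8.38% of all genes. The 4 were nuclear receptors. Ppara (ENSMUSG00000022383, chromosome 15 from 85734983 to 85802819), the fatty acid receptor, had 799.7, 849 and 883 in AbsPro and 257, 249.9, 307 and 292 in SecPDG (log2 fold change -1.61, SE 0.32, adjusted p = 0.00138), against 660.5 ± 19.2 (SD, n = 3) in Stem. Nr1h4, the bile acid receptor, Nr1i2, the xenobiotic receptor, and Nr5a2, which drives local steroid synthesis, differed by -1.53, -1.42 and -1.61 (adjusted p = 0.00905, 0.00848 and 0.00601). Ppara was not called without SecPDG 2 (adjusted p = 0.0135), and the other calls were less stable. Nr1h4 and Nr1i2 were each called at 2 of the 7 omissions of a single library and Nr5a2 in 1 of them, with adjusted p up to 0.0317 (without SecPDG 3), 0.0491 (without SecPDG 2) and 0.0525 (without SecPDG 2). Without AbsPro 2 the list held 1 call and without SecPDG 2 none.

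Hnf4a, the nuclear receptor that maintains enterocyte identity, had 12363, 12125 and 11033 in Stem, 13893, 14524 and 13808 in AbsPro and 6806, 7730.5, 6297 and 7526 in SecPDG. The groups did not overlap, yet the difference passed the test only among the 7 libraries alone (log2 fold change -0.99, SE 0.40, adjusted p = 0.212; 0.000433). Hnf4g had 891, 1059.7 and 1128 in AbsPro and 199, 518, 617 and 669 in SecPDG (adjusted p = 0.0983; 7 libraries alone, 0.0296). Cdx1 and Cdx2, the caudal factors that specify the hindgut, overlapped between the groups, with means of 5329 ± 449 (SD, n = 3) and 5287 ± 424 (SD, n = 4) for Cdx1 and 5135 ± 1786 (SD, n = 3) and 3723 ± 765 (SD, n = 4) for Cdx2.

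Products of goblet cells were called in SecPDG alone. Of 25 mucus and goblet genes tested, 12 were called higher in SecPDG, beside 1.21% of all genes, none in AbsPro, and the list median was 2.5. In 22 of the 25, all SecPDG libraries lay above AbsPro, beside 7.39% of all genes. Retnlb (ENSMUSG00000022650, chromosome 16 from 48816856 to 48818892), the resistin-like antibacterial protein of goblet cells, had 2174, 939 and 1939 in AbsPro and 18148, 64904, 23160.5 and 34423 in SecPDG (log2 fold change 4.38, SE 0.78, adjusted p = 0.000388). Itln1, the intelectin that binds bacterial glycans, had 39.6, 21.96 and 4.69 in AbsPro and 315, 4372, 320.1 and 611 in SecPDG (log2 fold change 5.96, SE 1.05, adjusted p = 0.000324). Agr2, the disulfide isomerase that mucin folding requires, had 11884, 4013 and 15341 in AbsPro and 51204, 70911, 65161 and 91565 in SecPDG (log2 fold change 2.74, SE 0.63, adjusted p = 0.00646). The calls of Retnlb and Itln1 held without any single library. Agr2 lost its call without AbsPro 1 (adjusted p = 0.0149), AbsPro 2 (adjusted p = 0.0841), SecPDG 1 (adjusted p = 0.01), SecPDG 3 (adjusted p = 0.0126) or SecPDG 4 (adjusted p = 0.0194). The other called members were Sytl2, Ang4, Tpsg1, Ccl6, Ccl9, Bcas1, Atp2c2, Galnt12 and B3gnt6, and Ang4, an angiogenin-type antimicrobial, was not called without AbsPro 2 (adjusted p = 0.064), AbsPro 3 (adjusted p = 0.0554) or SecPDG 2 (adjusted p = 0.0305). The list held 5 calls without AbsPro 2.

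The structural mucus proteins themselves did not pass in the 22-library fit. Muc2, the gel-forming mucin, had 63495, 29154 and 88401 in AbsPro and 374491, 1142460.0, 357973 and 669317 in SecPDG (log2 fold change 3.40, SE 0.84, adjusted p = 0.0123; 7 libraries alone, 4.1e-05, a call). Fcgbp, an abundant mucus protein, had 85337, 39050.0 and 115154 in AbsPro and 212312, 912524, 205832 and 262342 in SecPDG (log2 fold change 2.32, SE 0.75, adjusted p = 0.0823), and Clca1, a mucus metalloprotease, had 24484, 6099.8 and 15027 in AbsPro and 53997, 856191, 59880.0 and 155441 in SecPDG (log2 fold change 4.21, SE 1.02, adjusted p = 0.0102). For all of them SecPDG 2 was the highest library and AbsPro 2 the lowest, and the groups did not overlap. Zg16, a lectin that keeps bacteria from the epithelium, did not follow this pattern. It had 7157, 3348 and 12327 in AbsPro and 4922, 6063, 5931 and 5447 in SecPDG, against 435 ± 209.8 (SD, n = 3) in Stem, and the groups overlapped (log2 fold change -0.44, SE 0.49, adjusted p = 0.734). Tff3, the trefoil peptide, had 3238, 1329.8 and 5031 in AbsPro and 5093, 11236, 6013 and 8371 in SecPDG, a narrow gap without overlap (log2 fold change 1.26, SE 0.53, adjusted p = 0.227). Of the 8 goblet markers, the fit of the 7 libraries alone called 7 higher in SecPDG, all but Zg16, and 0 in AbsPro. The shares of all genes were 5.91% and 3.59%.

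Enzymes that start, branch or cap O-glycans on mucins were among those called higher in SecPDG. Of 47 glycan enzymes, 15 were called higher in SecPDG and 1 in AbsPro, beside 1.21% and 1.01% of all genes. The list median was 1.26. Among the 7 libraries alone, 33 of 45 tested were higher in SecPDG and 1 in AbsPro, beside 5.91% and 3.59% of all genes. Without AbsPro 2 the 22-library fit held 7 in SecPDG and 1 in AbsPro. The first sugar is added by the Galnt transferases, of which Galnt3, Galnt5, Galnt6, Galnt7, Galnt10 and Galnt12 were called. Galnt5 (ENSMUSG00000026828, chromosome 2 from 57997884 to 58045860) had 768, 234 and 1002 in AbsPro and 4287, 6901, 4508 and 4586 in SecPDG (log2 fold change 2.92, SE 0.47, adjusted p = 9.27e-05). C1galt1 and its chaperone C1galt1c1, which together make the core 1 branch, differed by 2.05 and 1.96 (adjusted p = 0.0021 and 0.0021). Both lost the call without AbsPro 2 (adjusted p = 0.0403 and 0.0354). B3gnt6 (ENSMUSG00000074004, chromosome 7 from 98192417 to 98199481), the core 3 enzyme of the colon, had 246, 89.5 and 292 in AbsPro and 2206, 1897, 1822 and 2008 in SecPDG (log2 fold change 3.25, SE 0.56, adjusted p = 0.000264), with no overlap and no call lost.

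The core 2 branching enzymes split between the populations. Gcnt1 (ENSMUSG00000038843, chromosome 19 from 17326141 to 17372844) had 7.06, 0 and 12.2 in AbsPro and 120.1, 98.2, 215 and 135 in SecPDG (log2 fold change 4.47, SE 0.79, adjusted p = 0.000349). Its paralog Gcnt4 (ENSMUSG00000091387, chromosome 13 from 96924689 to 96950906) had 359.6, 206 and 306 in AbsPro and 0, 14.9, 11.8 and 40.2 in SecPDG (log2 fold change -4.11, SE 0.72, adjusted p = 0.000307), in the opposite direction. Gcnt3, the abundant mucin-type enzyme of the same family, had 4145, 4023 and 5637 in AbsPro and 10587, 15657, 11826 and 13636 in SecPDG and was not called (adjusted p = 0.0185; 7 libraries alone, 1.37e-05, a call). The calls of Gcnt1 and Gcnt4 held without any single library, and both genes were low beside Gcnt3. The capping enzymes called higher in SecPDG were the sialyltransferases St3gal1, St3gal3 and St6gal1, the fucosyltransferase Fut4 and the sulfotransferase Chst4, with log2 fold changes from 1.91 (St3gal3) to 2.64 (St6gal1).

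Among the genes that fold proteins in the ER, the calls lay in SecPDG. Of 54 genes of ER folding and the unfolded protein response, 12 were called higher in SecPDG, beside 1.21% of all genes, and none in AbsPro. In 43 all SecPDG libraries lay above AbsPro, beside 7.39% of all genes, and the list median was 1.18. Among the 7 libraries alone, 35 of 52 were called, all in SecPDG, beside 5.91% of all genes. Pdia5 (ENSMUSG00000022844, chromosome 16 from 35397312 to 35490873), a disulfide isomerase, had 1561, 1001 and 1881 in AbsPro and 7453, 12721, 7934 and 9712 in SecPDG (log2 fold change 2.67, SE 0.44, adjusted p = 0.000151), and it was the 1 call of the list that held without AbsPro 2. Txndc5, another disulfide isomerase, had 5402, 3399 and 5037 in AbsPro and 21124, 28975, 23024 and 24078 in SecPDG (log2 fold change 2.40, SE 0.46, adjusted p = 0.000896), a call lost without AbsPro 2 (adjusted p = 0.018). Ern2, the stress sensor of mucous epithelia, had 2027, 1352 and 2156 in AbsPro and 6857, 8995, 6987 and 7726 in SecPDG (log2 fold change 2.05, SE 0.40, adjusted p = 0.0011), while its ubiquitous relative Ern1 overlapped between the groups, with 1267, 822 and 1115 in AbsPro and 1208, 2496, 1679 and 1625 in SecPDG. Eif2ak3, the sensor kinase PERK, differed by 1.71 (adjusted p = 0.00159). Ern2 and Eif2ak3 also lost their calls without AbsPro 2 (adjusted p = 0.0216 and 0.025).

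Hspa5 (ENSMUSG00000026864, chromosome 2 from 34771970 to 34777547), the main chaperone of the ER lumen, had 5210.4, 8266 and 7179.7 in Stem, 9980.2, 8455 and 10440.3 in AbsPro and 20516, 32896, 24671 and 26947 in SecPDG. Every SecPDG library was above every AbsPro library, and the difference was called among the 7 libraries alone (adjusted p = 1.14e-05) but not among the 22 (log2 fold change 1.45, SE 0.44, adjusted p = 0.0565). Hsp90b1, its partner GRP94, had the smaller difference of 0.80 (adjusted p = 0.41; 7 libraries alone, 0.00135, a call). Canx, the lectin chaperone calnexin, and Ddit3, the stress factor CHOP, overlapped between the groups, with log2 fold changes of 0.08 and -0.51 (adjusted p = 0.991 and 0.688). Both were chosen after their values were seen.

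**Figure D3:**
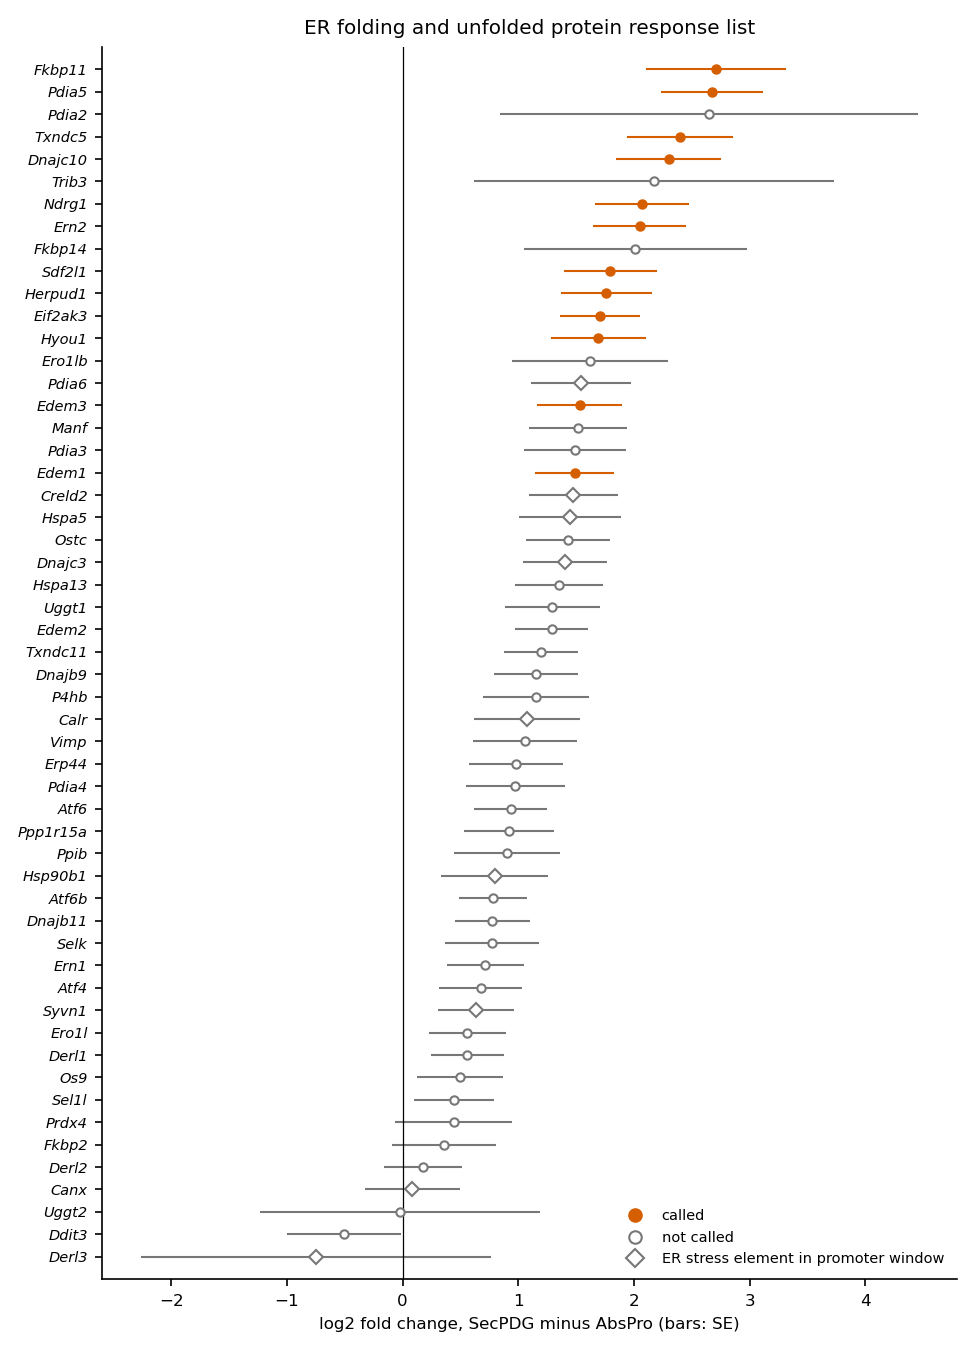
Log2 fold change, SecPDG minus AbsPro, of the 54 tested genes of ER folding and the unfolded protein response (points) with its SE (bars). The 12 called genes are orange, all to the right of 0, and the 9 diamonds mark genes whose promoter window holds an ER stress element, which run from -0.75 (Derl3) to 1.54 (Pdia6).

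Some genes of this list share a promoter sequence, the ER stress element. The list was drawn up by name as genes of the unfolded protein response. The share of the element in it is therefore a description and not independent support. The ER stress element was searched as CCAAT and CCACG separated by 9 bases, on both strands, in RefSeq promoter windows from 250 bases before to 50 bases after the transcription start (GRCm38.p6). It occurred in 27 of the 16762 tested genes with a window (0.161%) and in 9 of the 42 ER folding genes with one (21.4%). Of the 183 windows of genes higher in AbsPro 0 held it, and of the 204 windows of genes higher in SecPDG 1 did (0.49%), that of Spats2l. The 4 sites below belong to the genes of the list with the largest fold changes among the 9, and are shown with a few bases on either side, in the direction of the gene, with the element in capitals.
Pdia6, chr12:17266486-17266514, plus strand: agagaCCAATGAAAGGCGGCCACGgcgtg
Creld2, chr15:88819515-88819543, plus strand: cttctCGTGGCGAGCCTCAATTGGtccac
Hspa5, chr2:34772020-34772048, plus strand: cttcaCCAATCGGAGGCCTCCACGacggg
Dnajc3, chr14:118937822-118937850, plus strand: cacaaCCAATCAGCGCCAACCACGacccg
These genes encode a disulfide isomerase, a secreted ER stress protein, the chaperone above and a co-chaperone. Creld2 carries the element on the strand opposite to the gene. Pdia6 had 4079.8, 3135 and 3632 normalized counts in AbsPro and 7614, 13614, 9132 and 11736 in SecPDG (log2 fold change 1.54, SE 0.43, adjusted p = 0.0346), and Creld2 had 646, 659 and 736 in AbsPro and 1487, 2159.5, 1743 and 2186 in SecPDG (log2 fold change 1.48, SE 0.38, adjusted p = 0.0188). None of the 9 genes with the element was called in the 22-library fit.

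The core of the unfolded protein response element, TGACGTGG on either strand, was found in 147 of all windows (0.877%), in 8 of 204 windows of genes higher in SecPDG (3.92%) and in 1 of 183 of genes higher in AbsPro (0.546%). The 8 genes were Arfgef3, Hk2, Kdelr3, Rnf39, Sec24d, Slc7a6, Smim14 and Txndc5. Read on the other strand it begins with CCACG, so it can overlap the element above. The sites of the 3 genes that act in the secretory pathway are shown with the core in capitals.
Sec24d, chr3:123267459-123267488, plus strand: gcccgggcgccTGACGTGGcactagcaacc
Kdelr3, chr15:79516367-79516396, plus strand: tggccgccccgCCACGTCAccgcgcggcca
Txndc5, chr13:38528034-38528063, minus strand: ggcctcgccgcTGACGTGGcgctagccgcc
A match in a window is a description of the letters and not of binding.

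The calls of the transport out of the ER also lay in SecPDG in the 22-library fit. Of 64 genes of ER translocation and export, 7 were called higher in SecPDG (Sec24d, Tmed3, Kdelr2, Kdelr3, Lman1, Mcfd2 and Mia3), beside 1.21% of all genes, and none in AbsPro, with a list median of 0.97. Sec24d (ENSMUSG00000039234, chromosome 3 from 123267455 to 123365641), a cargo adaptor of the COPII coat, had 1265, 751 and 1355 in AbsPro and 5258, 8243, 4872 and 4663 in SecPDG (log2 fold change 2.36, SE 0.41, adjusted p = 0.000262). Kdelr3, a receptor that returns chaperones to the ER, had 199, 75.6 and 292 in AbsPro and 916, 1293, 1285 and 1198 in SecPDG (log2 fold change 2.64, SE 0.54, adjusted p = 0.00183), and Mia3, which loads bulky cargo into COPII carriers, had 5861, 3016 and 7344 in AbsPro and 16659, 32211, 20477 and 22581 in SecPDG (log2 fold change 2.09, SE 0.43, adjusted p = 0.00177). In 49 of the 64 genes the SecPDG libraries all lay above AbsPro, beside 7.39% of all genes. Sec24d was the 1 call that held without AbsPro 2, where Kdelr3 and Mia3 had adjusted p of 0.0304 and 0.036. The translocon subunits Sec61a1 and Sec61b were not called (adjusted p = 0.0867 and 0.193) but were called higher in SecPDG by the fit of the 7 libraries. That fit called 46 of the 64 genes higher in SecPDG and 1 in AbsPro, beside 5.91% and 3.59% of all genes.

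Secretory granules are released by calcium-triggered fusion with the cell membrane. Of 40 granule exocytosis genes, 7 were called higher in SecPDG and 1, Unc13d, in AbsPro, beside 1.21% and 1.01% of all genes. Ptprn2 (ENSMUSG00000056553, chromosome 12 from 116485720 to 117276849), a membrane protein of dense core granules, had 892, 498 and 1299.9 in AbsPro and 4749, 6353, 5753 and 4771 in SecPDG (log2 fold change 2.59, SE 0.42, adjusted p = 0.000116). Syt7, a calcium sensor of exocytosis, had 676, 281 and 1045 in AbsPro and 2811, 5095, 3408 and 3676 in SecPDG (log2 fold change 2.49, SE 0.43, adjusted p = 0.000262), and Kcnma1, the large-conductance potassium channel, had 396, 91.1 and 589 in AbsPro and 3574, 4646, 3142 and 2979 in SecPDG (log2 fold change 3.32, SE 0.46, adjusted p = 9.56e-06). These 3 calls held without any single library. Rab3d, a small GTPase of secretory granules, differed by 1.83 (adjusted p = 0.00714), and its call was lost at each of the 7 omissions, with adjusted p up to 0.0706 without AbsPro 2. Without AbsPro 2 the list held 3 calls in SecPDG and 1 in AbsPro. The EEC markers did not follow these genes. Chgb, a granin chosen after its values were seen, had 11045, 2259 and 10869 normalized counts in AbsPro and 4107, 1368, 4264 and 4052 in SecPDG, which overlapped (adjusted p = 0.445), and Pyy, the peptide YY gene, was called higher in AbsPro (log2 fold change -4.36, SE 0.93, adjusted p = 0.00283) but not without AbsPro 1 (adjusted p = 0.0433), SecPDG 1 (adjusted p = 0.0166), SecPDG 2 (adjusted p = 0.0224) or SecPDG 3 (adjusted p = 0.018).

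Deep crypt secretory cells neighbour the stem cells at the colon crypt base and are sorted by Kit and marked by Reg4. Kit (ENSMUSG00000005672, chromosome 5 from 75574916 to 75656722), whose protein was one of the sort gates, had 832, 449.8 and 1147 normalized counts in AbsPro and 6069.7, 9231, 6713 and 6782 in SecPDG (log2 fold change 3.15, SE 0.44, adjusted p = 1.17e-05), and Cd24a, another gate, had 4116, 2439 and 3819 in AbsPro and 13694, 12493, 15443 and 12995 in SecPDG (log2 fold change 1.98, SE 0.50, adjusted p = 0.0152). These values describe the gates. Reg4, a secreted lectin of the same cells, had 19113, 7467 and 28132 in AbsPro and 113401, 231630.0, 135033 and 180484 in SecPDG (log2 fold change 3.18, SE 0.76, adjusted p = 0.00879). Its groups lay far apart, yet the call was lost at each of the 7 omissions of a single library, with adjusted p of 0.0112 to 0.0974, the highest without AbsPro 2. Beside 1.21% and 1.01% of all genes, 3 of 25 deep crypt secretory and antimicrobial genes tested were called higher in SecPDG (Kit, Reg4 and Mptx1) and 2 in AbsPro. The latter were Reg3b, an antibacterial lectin of enterocytes, with 649.9, 51.2 and 199 in AbsPro and 0, 16.2, 21.1 and 19.6 in SecPDG (log2 fold change -4.39, SE 0.82, adjusted p = 0.00067), and Wfdc2, a secreted protease inhibitor, with 1209, 989 and 973 in AbsPro and 105, 228, 237 and 396 in SecPDG (log2 fold change -2.13, SE 0.44, adjusted p = 0.00208). Reg3b lost the call without AbsPro 1 (adjusted p = 0.027) and Wfdc2 without SecPDG 1 (adjusted p = 0.0145) or SecPDG 2 (adjusted p = 0.0134).

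Among the listed genes of EGF, FGF and Kit signaling few were called, and 1 of the calls held without any single library, that of Etv5. Etv5 (ENSMUSG00000013089, chromosome 16 from 22381309 to 22439719), an ETS factor induced by receptor tyrosine kinase signals, had 396, 320.1 and 329.5 in Stem, 506, 325 and 488 in AbsPro and 3672, 3733, 3587 and 3450.3 in SecPDG (log2 fold change 3.04, SE 0.34, adjusted p = 4.58e-07), and the 4 SecPDG libraries lay close together. Kitl, the ligand of Kit, ran opposite to its receptor, with 2277, 1574 and 2271 in AbsPro and 705, 832, 862 and 981 in SecPDG (log2 fold change -1.27, SE 0.30, adjusted p = 0.00871). Fgfr4 was also higher in AbsPro (log2 fold change -1.45, SE 0.34, adjusted p = 0.00782). The Kitl call was lost at each of the 7 omissions of a single library (adjusted p up to 0.0541 without SecPDG 2), and that of Fgfr4 in all but the fit without SecPDG 1 (adjusted p up to 0.0898 without AbsPro 2). Fgfr2 and Fgfr3 had log2 fold changes of 1.29 and 1.35 and were not called (adjusted p = 0.0609 and 0.0556), and Egfr overlapped between the groups. Of the 35 genes of EGF, FGF and Kit signaling, 1 was thus called in SecPDG and 2 in AbsPro, beside 1.21% and 1.01% of all genes.

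Among sensing receptors, Ffar2 (ENSMUSG00000051314, chromosome 7 from 30818348 to 30823775), the receptor for short chain fatty acids, had 112, 79.7 and 133 in AbsPro and 1277, 781, 1120.4 and 1172 in SecPDG (log2 fold change 3.33, SE 0.46, adjusted p = 1.28e-05). Chrm1, a muscarinic acetylcholine receptor, had 175, 23.6 and 92.8 in AbsPro and 841, 848, 524 and 722 in SecPDG (log2 fold change 2.91, SE 0.57, adjusted p = 0.00108), a call lost without AbsPro 2 (adjusted p = 0.0154). Il4ra, the receptor chain for IL-4 and IL-13, was higher by 1.31 (adjusted p = 0.00923) and was called at 2 of the 7 omissions. Its adjusted p was highest without AbsPro 2 (0.0858). Adra2a, an adrenergic receptor, was the 1 call in AbsPro, with 681, 756 and 1094 in AbsPro and 253, 276, 269 and 312 in SecPDG (log2 fold change -1.60, SE 0.34, adjusted p = 0.00283), lost without AbsPro 3 (adjusted p = 0.0169), SecPDG 1 (adjusted p = 0.0116), SecPDG 2 (adjusted p = 0.0224) or SecPDG 3 (adjusted p = 0.0127). Of the 28 hormone and neuropeptide receptors and sensors, 3 were thus called in SecPDG and 1 in AbsPro, beside 1.21% and 1.01% of all genes. The list median was -0.44, and it was -0.06 over the 21 members that reached the minimum mean.

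Genes of colonocyte ion and water transport were called mainly in AbsPro. Of 39 tested, 15 were called higher in AbsPro and 2 in SecPDG, beside 1.01% and 1.21% of all genes, with a list median of -1.48. Slc26a3 (ENSMUSG00000001225, chromosome 12 from 31390871 to 31473917), the chloride-bicarbonate exchanger of the colon surface, had 311, 674 and 706 normalized counts in Stem, 2487, 2063 and 3489.8 in AbsPro and 17.0, 74.6, 22.7 and 71.5 in SecPDG (log2 fold change -5.86, SE 0.58, adjusted p = 9e-08). Aqp4, a basolateral water channel, had 6938, 3755 and 3811 in AbsPro and 698, 481, 1385 and 1111 in SecPDG (log2 fold change -2.40, SE 0.43, adjusted p = 0.000375), against 2799 ± 557 (SD, n = 3) in Stem. Slc51a, a subunit of the basolateral organic solute transporter, had 358, 371 and 589 in AbsPro and 0, 17.4, 11.8 and 13.7 in SecPDG (log2 fold change -5.36, SE 0.66, adjusted p = 1.68e-06), and its partner subunit Slc51b was also called (log2 fold change -5.18). The other called genes in this direction were Slc9a2, Slc9a3, Slc5a8, Slc4a4, Aqp8, Car1, Clcn2, Slc20a1, Slc22a18, Slc30a10 and Slc40a1. Of the 15 calls, 11 held without any single library.

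The sodium transporters divided between the populations. Slc9a3, the apical sodium-proton exchanger, had 189, 102 and 229.8 in AbsPro and 0, 26.1, 2.53 and 4.90 in SecPDG (log2 fold change -4.44, SE 0.92, adjusted p = 0.0021), a call lost without SecPDG 1 (adjusted p = 0.0101), SecPDG 3 (adjusted p = 0.0144) or SecPDG 4 (adjusted p = 0.0129). Scnn1a, the alpha subunit of the epithelial sodium channel, was higher in SecPDG, with 1262, 985 and 1547 in AbsPro and 4329, 8103, 4086 and 4443 in SecPDG (log2 fold change 2.05, SE 0.43, adjusted p = 0.0022), as was Best2, a bicarbonate-permeable channel of goblet cells, with 44.5, 56.1 and 144 in AbsPro and 1378, 799, 774 and 529.8 in SecPDG (log2 fold change 3.42, SE 0.63, adjusted p = 0.000561). Both lost the call without AbsPro 2 (adjusted p = 0.0328 and 0.0105). Cftr, the chloride channel of fluid secretion, had 8171, 6649 and 8420.1 in AbsPro and 2911, 2319.9, 2573 and 3285 in SecPDG, without overlap, and was called among the 7 libraries alone (adjusted p = 6.03e-05) but not among the 22 (adjusted p = 0.0362). Slc12a2, the basolateral chloride uptake transporter, had 13766, 13744 and 13758 in AbsPro and 22937, 30733, 24859 and 25830.5 in SecPDG, the reverse order, and was called in the same way (adjusted p = 0.000373 and 0.362).

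Of 43 brush border and surface genes, 9 were called higher in AbsPro and 1 in SecPDG, beside 1.01% and 1.21% of all genes. All of these calls in the list held without any single library. Krt20 (ENSMUSG00000035775, chromosome 11 from 99428403 to 99438150), the keratin of differentiated surface cells, had 3522, 2087 and 6392 in AbsPro and 520.0, 239, 496 and 492 in SecPDG (log2 fold change -3.19, SE 0.53, adjusted p = 0.000153), and SecPDG lay near the Stem level of 496 ± 141 (SD, n = 3). Mall, a raft protein of the MAL family, had 1017, 951 and 1050.4 in AbsPro and 0, 32.3, 34.5 and 29.4 in SecPDG (log2 fold change -5.38, SE 0.76, adjusted p = 1.63e-05). Alpi (ENSMUSG00000079440, chromosome 1 from 87098002 to 87101606), intestinal alkaline phosphatase, was low in both, with 132, 65.9 and 171 in AbsPro and 0, 9.95, 0 and 5.88 in SecPDG (log2 fold change -4.97, SE 1.03, adjusted p = 0.0021). The other genes in this direction were Emp1, Tmigd1, Mep1a, Ceacam20, Lgals3 and Mal. The exception was Anpep (ENSMUSG00000039062, chromosome 7 from 79821803 to 79861059), aminopeptidase N, with 814, 521 and 1359 in AbsPro and 4121, 5393, 3732 and 3623 in SecPDG (log2 fold change 2.23, SE 0.39, adjusted p = 0.000324).

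Detoxification and steroid metabolism held the largest number of AbsPro calls of any list. Of 63 genes, 29 were called higher in AbsPro, beside 1.01% of all genes, and none in SecPDG. The list median was -2.13, and 20 of the 29 calls held without any single library. Cyp2c55 (ENSMUSG00000025002, chromosome 19 from 39007019 to 39042693), a cytochrome P450 of the colon, had 1005, 1312 and 1008 in Stem, 5002, 4587 and 7016 in AbsPro and 192, 80.8, 105 and 87.2 in SecPDG (log2 fold change -5.57, SE 0.60, adjusted p = 3.61e-07). Hsd3b2 (ENSMUSG00000063730, chromosome 3 from 98709255 to 98724543), a 3-beta-hydroxysteroid dehydrogenase, had 544, 549 and 762 in AbsPro and 10.4, 22.4, 15.2 and 37.2 in SecPDG (log2 fold change -4.86, SE 0.55, adjusted p = 4.58e-07). Selenbp1 (ENSMUSG00000068874, chromosome 3 from 94933056 to 94944758), the methanethiol oxidase, had 8516, 14605 and 12986 in AbsPro and 718, 850.4, 1189 and 1046 in SecPDG (log2 fold change -3.66, SE 0.56, adjusted p = 4.89e-05). In all 3 genes SecPDG lay below every Stem library, and AbsPro above. Sult1b1, a sulfotransferase, and Aldh1a1, a retinaldehyde dehydrogenase, differed by -3.58 and -3.03 (adjusted p = 1.22e-05 and 0.000307). The carboxylesterase Ces2c had 321, 290.3 and 475 in AbsPro and 0.945, 11.2, 40.4 and 13.7 in SecPDG (log2 fold change -4.42, SE 0.79, adjusted p = 0.000417). The Cyp2c, Hsd3b, Ces and Ugt1a genes have near-identical neighbours, between which reads can be split by the counting, so their single values are uncertain. Without AbsPro 2 the list held 24 calls and without SecPDG 2, 21, all in AbsPro.

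Hsd11b2, the enzyme that inactivates glucocorticoids in aldosterone target cells, had 4876, 4541 and 7084 in AbsPro and 19630.0, 23873, 17885 and 15697 in SecPDG, without overlap and in the reverse order (log2 fold change 1.81), and was called among the 7 libraries alone (adjusted p = 2.31e-05) but not among the 22 (adjusted p = 0.0239). Its partner Nr3c2, the mineralocorticoid receptor, had 1825, 1740.5 and 2561 in AbsPro and 2833, 4747, 2728 and 3138 in SecPDG and was not called in either fit (adjusted p = 0.315 and 0.0105).

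The HNF4 consensus CAAAGTCCA, on either strand, was found in 96 of 16762 promoter windows (0.573%), in 6 of 183 windows of genes higher in AbsPro (3.28%) and in 1 of 204 of genes higher in SecPDG (0.49%), that of Fhl1. The 6 genes were Alpi, Cyp2c65, H2-T3, Hsd3b3, Sult1b1 and Trpv6. The 4 sites shown lie before the transcription start, and are shown in the direction of the gene with the motif in capitals.
Alpi, chr1:87101607-87101635, minus strand: tagccagggaCAAAGTCCAtctctgattt
Cyp2c65, chr19:39060880-39060908, plus strand: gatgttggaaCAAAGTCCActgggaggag
H2-T3, chr17:36190149-36190177, minus strand: ttgcaagttaCAAAGTCCAggactttata
Trpv6, chr6:41636536-41636564, minus strand: ctgggtatccCAAAGTCCAggggccagct
H2-T3 is a nonclassical MHC class I gene and Trpv6 an apical calcium channel. Their log2 fold changes were -4.97 (Alpi), -3.76 (Cyp2c65), -3.16 (H2-T3) and -4.08 (Trpv6).

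Energy metabolism moved in part. Acsl1, which activates fatty acids, was higher in SecPDG, with 702, 568 and 657 in AbsPro and 1788, 2252, 1479 and 1618 in SecPDG (log2 fold change 1.47, SE 0.31, adjusted p = 0.00227), a call lost without AbsPro 2 (adjusted p = 0.0287). Cpt1a, the gate of mitochondrial fatty acid entry, was not called (log2 fold change -0.45, SE 0.38, adjusted p = 0.631). In 21 of 36 genes of fatty acid oxidation and ketogenesis all AbsPro libraries lay above SecPDG, beside 8.38% of all genes, with a list median of -0.50. None of 77 respiratory chain subunits was called by edgeR's 22-library fit or by DESeq2, with 4 at an unadjusted p under 0.05, all higher in AbsPro, and a list median of -0.37. The fit of the 7 libraries called 3 of them higher in AbsPro, beside 3.59% of all genes. In 27 of the 77 all AbsPro libraries lay above SecPDG and in 1 the reverse held, beside 8.38% and 7.39% of all genes. Of 78 cytosolic ribosomal proteins none was called by edgeR and 1, higher in AbsPro, by DESeq2, with 2 at an unadjusted p under 0.05 and a median of -0.29. Cholesterol synthesis (25 genes), antigen presentation (17) and the citrate cycle (24) held no call by edgeR's 22-library fit. At an unadjusted p under 0.05 they had 2 genes higher in SecPDG, 2 higher in AbsPro and 1 higher in AbsPro, respectively, and DESeq2 called 0, 0 and 1.

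Proliferation genes did not separate the progenitors in the 22-library fit. Mki67, the cycling marker, had 18356, 22300.0 and 26134 normalized counts in Stem, 20117, 12002 and 22628 in AbsPro and 22163, 26625, 26585 and 27178 in SecPDG, and the groups overlapped. Top2a, the mitotic topoisomerase, had 2911, 3327 and 4616 in AbsPro and 7827, 8249, 8917 and 9301 in SecPDG (log2 fold change 1.24, SE 0.39, adjusted p = 0.0722), and Plk1, the mitotic kinase, had 2062, 1412 and 2143 in AbsPro and 4259, 5084, 3925 and 4894 in SecPDG (log2 fold change 1.28, SE 0.36, adjusted p = 0.0346). Both were called higher in SecPDG among the 7 libraries alone (adjusted p = 0.000163 and 4.54e-05). None of 50 DNA replication genes was called by edgeR's 22-library fit, with 6 at an unadjusted p under 0.05 and 2 called by DESeq2, all higher in SecPDG. None of 52 mitosis genes was called either, with 1 in AbsPro and 8 in SecPDG at an unadjusted p under 0.05, and 3 higher in SecPDG by DESeq2. Over all 22781 genes, 2051 were higher in SecPDG at that unadjusted p. In 11 of the 50 and 11 of the 52 all SecPDG libraries lay above AbsPro, beside 7.39% of all genes. The reverse held in 0 and 1, beside 8.38%. The fit of the 7 libraries called 4 and 5 of them, all higher in SecPDG, beside 5.91% of all genes. The list medians were 0.36 and 0.44.

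For Cdkn1a and Cdkn2b, inhibitors of the cell cycle, the groups did not overlap. Cdkn1a, the p21 inhibitor, had 181, 123 and 172 in Stem, 570.1, 1022 and 1038 in AbsPro and 96.4, 469, 192 and 324 in SecPDG (log2 fold change -1.70, SE 0.49, adjusted p = 0.0401; 7 libraries alone, 0.00603, a call). Cdkn2b, the p15 inhibitor, had 179, 202 and 202 in AbsPro and 109, 26.1, 5.90 and 35.3 in SecPDG, and was called in neither fit (adjusted p = 0.0535 and 0.104). None of 31 G1 cyclins, kinases and inhibitors was called by edgeR among the 22 libraries, with 2 in AbsPro and 4 in SecPDG at an unadjusted p under 0.05 and 1 and 2 by DESeq2. In 4 of the 31 all AbsPro libraries lay above SecPDG and in 9 all SecPDG libraries lay above AbsPro, beside 8.38% and 7.39% of all genes.

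Stem cell markers had lower values in both populations than in Stem. Lgr5, the receptor that marks crypt base stem cells, had 2594, 2006 and 3197 in Stem, 368, 889.8 and 566 in AbsPro and 482, 441, 465 and 718 in SecPDG, and Axin2, a Wnt target, had 4499, 4155 and 5315 in Stem, 1785, 2801 and 1556 in AbsPro and 1851, 2089.9, 2237 and 2438 in SecPDG. For both genes AbsPro and SecPDG overlapped and lay below every Stem library. Cd44, a sort marker, had 2421, 2994 and 1856 in AbsPro and 3865, 4176, 4418 and 4666 in SecPDG (log2 fold change 0.82, SE 0.32, adjusted p = 0.175). Of 41 Wnt and stem cell genes tested, 1 was called, higher in AbsPro, beside 1.01% of all genes. It was Fzd5 (ENSMUSG00000045005, chromosome 1 from 64730558 to 64737751), a Wnt receptor, with 2274, 2623 and 2237 in Stem, 4405, 3609 and 3525 in AbsPro and 942, 1772, 1099 and 1115 in SecPDG (log2 fold change -1.64, SE 0.38, adjusted p = 0.00646), a call lost without AbsPro 1 (adjusted p = 0.0162), AbsPro 2 (adjusted p = 0.0208), SecPDG 1 (adjusted p = 0.0344), SecPDG 3 (adjusted p = 0.03) or SecPDG 4 (adjusted p = 0.0268). The sum of the 6 stem markers ranged from 6402 to 8749.52 over AbsPro, from 5655 to 7582 over SecPDG and from 15028 to 19401 over Stem libraries.

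Smaller signaling and junction lists held 1 or 2 calls each. Dpep1 (ENSMUSG00000019278, chromosome 8 from 123186242 to 123201812), the dipeptidase that converts leukotriene D4, had 856, 981 and 974 in AbsPro and 5.67, 58.4, 61.5 and 50.9 in SecPDG (log2 fold change -4.41, SE 0.59, adjusted p = 7.06e-06), and held without any single library. Pla2g2f, a secreted phospholipase, was higher in SecPDG, with 91.1, 0 and 16.9 in AbsPro and 468, 299.6, 665 and 451 in SecPDG (log2 fold change 3.69, SE 0.87, adjusted p = 0.00798), and was called in 2 of the 7 fits without 1 library (adjusted p up to 0.0538 without AbsPro 3). Ptger4, the prostaglandin E2 receptor, narrowly missed the threshold in the same direction, with 731, 514 and 1103 in AbsPro and 2303, 2868, 2627 and 2526 in SecPDG (log2 fold change 1.72, SE 0.42, adjusted p = 0.0101). Id1, a target of BMP signals, was higher in AbsPro, with 959, 1249 and 1137 in AbsPro and 311, 419, 307 and 315 in SecPDG (log2 fold change -1.72, SE 0.39, adjusted p = 0.00575), and so were Epha2 (-2.14, adjusted p = 0.00393) and Cldn8 (-2.70, adjusted p = 0.00761). These last are an Eph receptor and a sealing claudin, and each was lost in at least 4 of the 7 fits without 1 library, as was Id1, with adjusted p up to 0.0557 (Epha2, without AbsPro 2), 0.0446 (Cldn8, without SecPDG 2) and 0.0334 (Id1, without AbsPro 2). Ephb2 and Ephb3, the receptors that hold progenitors near the crypt base, were not called (adjusted p = 0.586 and 0.423), nor was Ihh, the epithelial hedgehog ligand (adjusted p = 0.942).

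**Figure D4:**
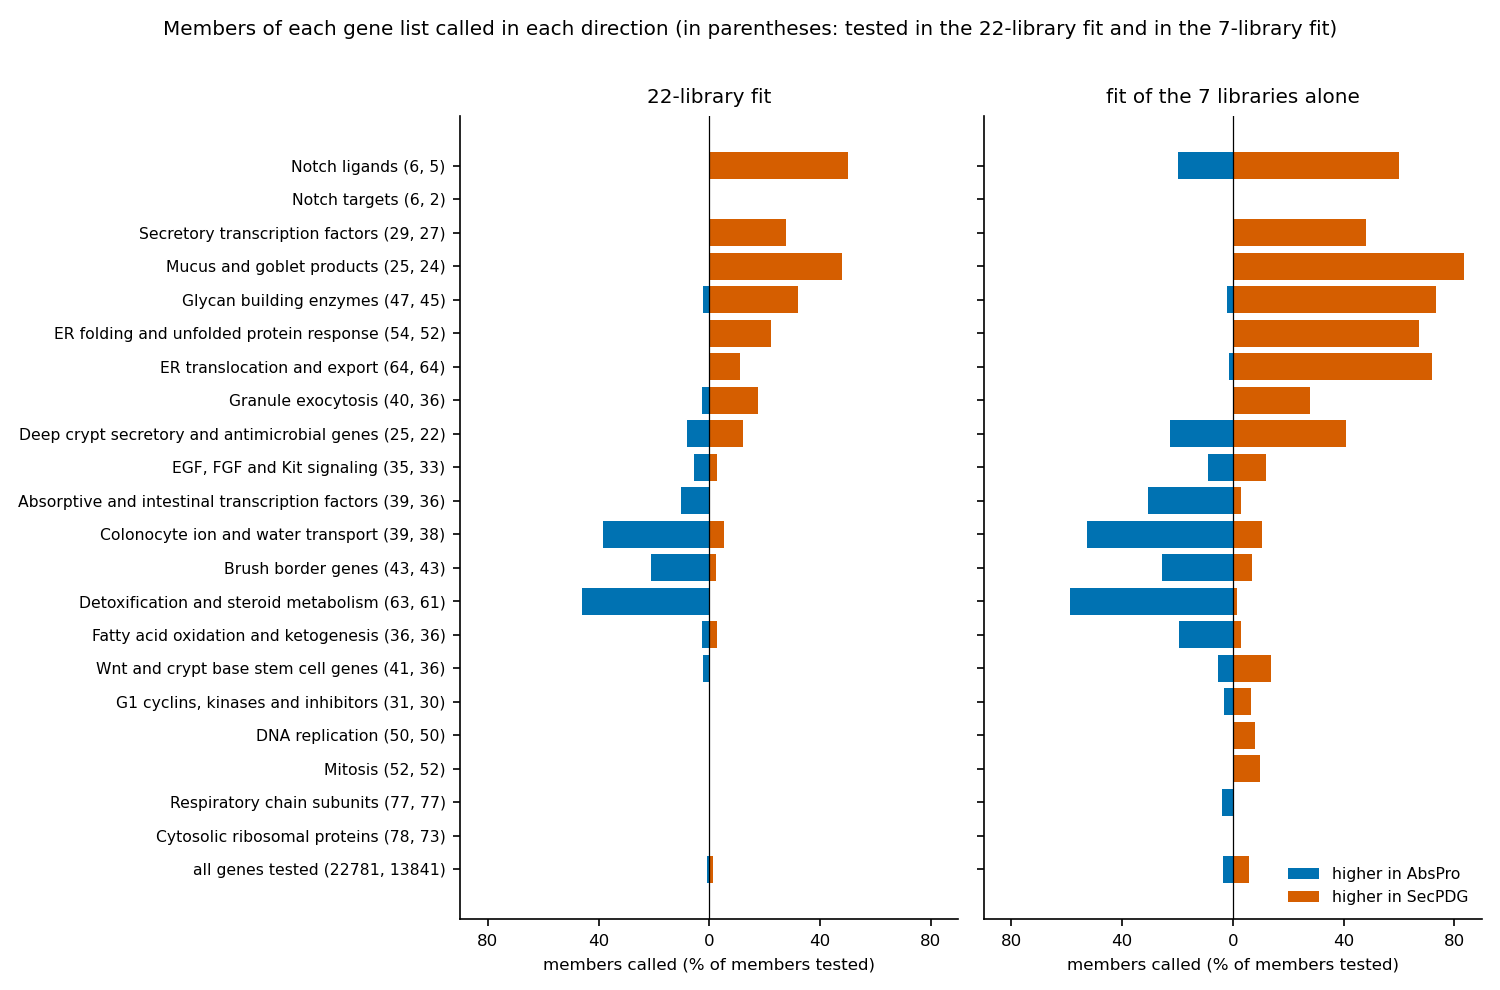
Share of the tested members of 21 gene lists called higher in AbsPro (blue, to the left) or in SecPDG (orange, to the right) by edgeR, in the fit of all 22 libraries and in the fit of the 7 libraries alone, with all genes tested as the last bar. Mucus, glycan, ER and Notch ligand genes extend to the right and detoxification, transport and brush border genes to the left in both fits, while ribosomal proteins have no bar in either.

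The position of Stem showed how the differences were shared between the populations. Of the 230 genes higher in AbsPro, 205 had a mean above Stem in AbsPro and below Stem in SecPDG, 9 were above Stem in both and 16 below Stem in both. Their median log2 difference from Stem, with 1 added to the means, was 0.98 in AbsPro and -1.63 in SecPDG, and 167 of them lay farther from Stem in SecPDG than in AbsPro. Of the 276 genes higher in SecPDG, 205 were above Stem in both populations, 70 above in SecPDG and below in AbsPro, and 1 below in both. Their medians were 3.00 in SecPDG and 0.63 in AbsPro, and 266 lay farther from Stem in SecPDG. These are counts of means without a test, over genes chosen by the difference between the progenitors.

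By function, the 29 detoxification genes had medians of 0.97 in AbsPro and -1.97 in SecPDG against Stem, and the 15 transport genes 1.41 and -2.07. The 9 brush border genes had medians of 2.11 and -1.27, and 5 of them lay farther from Stem in AbsPro. The 12 mucus and goblet genes stood at 5.11 in SecPDG and at 2.16 in AbsPro, all above Stem in both, and the 15 glycan enzymes at 3.17 and 0.71. AbsPro thus held mucus transcripts above the Stem level along with the goblet marker sums given above, and the part of mature goblet cells in the gate was not tested.

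**Figure D5:**
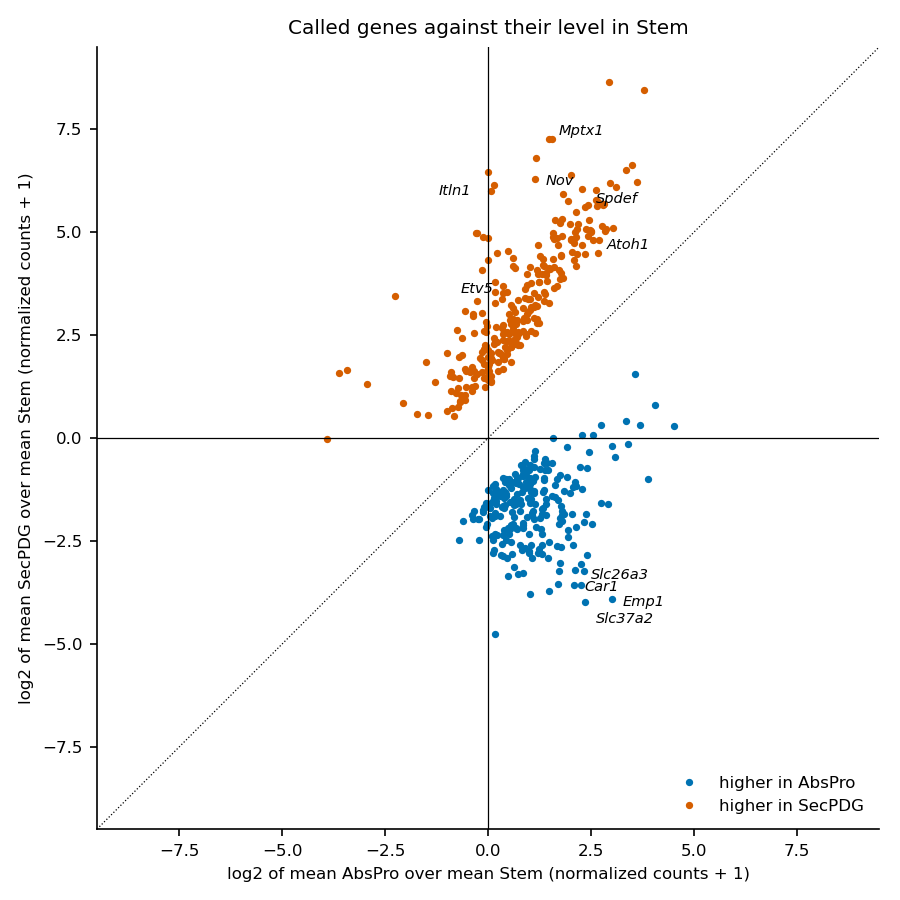
Each point is 1 of the 506 called genes, by log2 of its mean in AbsPro over Stem (horizontal) and in SecPDG over Stem (vertical), with 1 added to each mean and equality on the dotted line. Genes higher in AbsPro (blue) lie mostly at lower right, above Stem in AbsPro and below it in SecPDG, while genes higher in SecPDG (orange) lie mostly at upper right, above Stem in both.

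Markers of immune, stromal and endothelial cells, which the gates should remove, were also summed. The immune markers summed to 174 to 487 normalized counts in AbsPro and to 1239 to 2316 in SecPDG, and C1qa, a complement gene, made up nearly all of the SecPDG sum, with 1299, 2161, 1202 and 1723 against 112, 74.8 and 245 in AbsPro (log2 fold change 3.47, SE 0.68, adjusted p = 0.00108). The pan-leukocyte gene Ptprc had 0 to 28.6 in SecPDG and 19.5 to 32.8 in AbsPro, and was not called. C1qa lost its call without AbsPro 1 (adjusted p = 0.0121) or AbsPro 2 (adjusted p = 0.0197). The 8 stromal markers summed to 8.51 to 150 in SecPDG and, because of AbsPro 3, to 81.9 to 1292 in AbsPro. The 4 endothelial markers summed to 12.3 to 73.4 in SecPDG and to 5.69 to 62.8 in AbsPro. No stromal or endothelial marker was called by edgeR, and at an unadjusted p under 0.05, 4 stromal markers and 1 endothelial marker were higher in AbsPro and 1 endothelial marker in SecPDG, while DESeq2 called 1 stromal marker higher in AbsPro. Of the 5 Paneth markers tested, Ang4 and Itln1 were called in SecPDG, beside 1.21% of all genes, and both are also members of the mucus and goblet list. The Paneth markers summed to 144 to 1403 in AbsPro and to 4329 to 91754 in SecPDG, where SecPDG 2 was the highest.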

How the data were processed

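Bulk RNA-seq was made from sorted colon epithelial populations. Per the submitters' processing notes, reads were checked with FastQC 0.11.7, aligned to mm10 with STAR 2.5.2a, handled with SAMtools 1.3 and counted per gene with HTSeq 0.6.1p1, which by the study's methods ran without strand, and the authors deposited 1 table of raw counts per library. The 5 entries that name no gene were left out (reads on no gene were 45.5 to 49.4% of AbsPro and 40.9 to 46.8% of SecPDG reads). Gene totals were 15314543 to 22157285 per library, and fitted values carry counting error and library spread. The 15 deposited tables of splicing and polyadenylation comparisons were not used.

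Genes were filtered with filterByExpr (22781 of 24421 kept), scaled by TMM and tested with edgeR 4.0.16 (limma 3.58.1, R 4.3.3), with 1 term per cell type over 22 libraries. Calls needed an adjusted p (Benjamini-Hochberg) below 0.01 and, over all libraries, a mean of 50 normalized counts or more. DESeq2 1.42.0 was an alternative, beside other scalings, filters, sample sets and omissions. The test was checked on simulated data. Tables were made with Python 3.11.15. Named genes were the starred members of each list, the 10 largest changes per direction among called genes without overlap, and up to 3 called genes per list and direction, and a few of them are not reported here. Members and lists were chosen with earlier results of these data known. Gene coordinates are those of GENCODE vM21 (GRCm38), and promoter windows are from RefSeq (GRCm38.p6).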

Additional observations from a re-analysis of the deposited data

Results flagged for a closer look

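In 25 of 211 checks of the 4 SecPDG libraries, 1 library stood apart from the other 3 by Dixon's criterion, which chance alone meets in about 1 of 20 checks. Values are normalized counts in that library against the range of the other 3.

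SecPDG 1 was higher for Car4 (277 against 97.7 to 128). SecPDG 1 was lower for Mall (0 against 29.4 to 34.5), Mki67 (22163 against 26585 to 27178) and Mptx1 (23768 against 28051 to 28825). SecPDG 2 was higher for Ang4 (87377 against 3966 to 17697), Cbfa2t3 (7999 against 5383 to 5675), Ccnd1 (3244 against 1996 to 2186), Cdhr2 (9333 against 4555 to 5263), Cdhr5 (17737 against 7072 to 8431) and Clca1 (856191 against 53997 to 155441). The same library also stood above for Clps (1236 against 86.8 to 271), Fcgbp (912524 against 205832 to 262342), Galnt5 (6901 against 4287 to 4586), Id1 (419 against 307 to 315), Itln1 (4372 against 315 to 611) and Myo1a (12362 against 9105 to 9275). The same library also stood above for Rab3d (12336 against 7970.0 to 8605), Scnn1a (8103 against 4086 to 4443), Sec24d (8243 against 4663 to 5258), Sec61a1 (12718 against 7427 to 8149) and Spdef (7246 against 6024 to 6188). The same library also stood above for Paneth markers (91754 against 4329 to 18374). SecPDG 2 was lower for Krt20 (239 against 492 to 520.0). SecPDG 4 was higher for Cdk4 (1946 against 1367 to 1435) and Lgr5 (718 against 441 to 482).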

How the results depend on the processing

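The 506 calls (230 higher in AbsPro, 276 higher in SecPDG) became 1468 (576 and 892) with DESeq2, 926 (365 and 561) with DESeq2 size factors in edgeR, 932 (542 and 390) with library totals, 843 (329 and 514) with upper quartile factors, 937 (483 and 454) with totals without the 50 most abundant genes, 1315 (497 and 818) with the 7 libraries alone, 1445 (600 and 845) with the 10 libraries with Stem and 844 (384 and 460) with an adjusted p under 0.05. The cause of these moves was not tested. No filter (544), no minimum mean (509), a minimum mean over the 7 libraries (494), thinned counts (519) and a 2-fold minimum (506) stayed within 1.5 times. Leaving out 1 library at a time gave 279 to 437 calls, 152 to 189 in AbsPro and 103 to 252 in SecPDG, with the lowest total without AbsPro 2 (279, of which 103 in SecPDG) and the fewest in AbsPro without SecPDG 3 (152). With the replicate number as a block 544 genes were called (281 and 263). Deviations of same-numbered libraries correlated at -0.0427, -0.265 and -0.0804. These values showed no pairing by number, but so few libraries cannot exclude one. 

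No called gene named here changed direction. These genes, not called in the main fit, changed sign (log2 fold change, SecPDG minus AbsPro). With library totals, Axin2 was -0.0904, Cdk4 was -0.01748 and Sqle was -0.01199. With totals without the 50 most abundant genes, Axin2 was -0.03583. With the replicate block, Axin2 was -0.01907. With DESeq2, B3gnt7 was 0.01168, Cdx1 was 0.01525 and Etv4 was 0.008078. With DESeq2 size factors in edgeR, B3gnt7 was 0.01152, Cdx1 was 0.01525 and Etv4 was 0.007927. With upper quartile factors, B3gnt7 was 0.03188, Cdx1 was 0.04044, Etv4 was 0.0282, Rnf43 was 0.01358 and Tyms was 0.01166. With no filter on low counts, B3gnt7 was 0.002855, Ccnb1 was 0.08004, Cdhr2 was 0.07469, Cdx1 was 0.09746, Egfr was 0.003235, Etv4 was 0.04738, Rnf43 was 0.05551, Tyms was 0.08718 and Vil1 was 0.03164. With the 7 libraries alone, B3gnt7 was 0.03126, Cdx1 was 0.02793, Etv4 was 0.02446, Rnf43 was 0.003481 and Tyms was 0.00697. With the 10 libraries with Stem, B3gnt7 was 0.03098, Cdx1 was 0.02773, Etv4 was 0.0239, Rnf43 was 0.003065 and Tyms was 0.007288. With thinned counts, Cdx1 was 0.01213. Leaving out 1 library at a time moved Axin2 from -0.1379 to 0.3669, B3gnt7 from -0.4715 to 0.3627, Ccnb1 from -0.1968 to 0.153, Cdhr2 from -0.2082 to 0.0794, Cdx1 from -0.09795 to 0.08096, Etv4 from -0.3679 to 0.1937, Lgr5 from -0.4899 to 0.173, Rnf43 from -0.169 to 0.08734, Tyms from -0.273 to 0.1798 and Zg16 from -0.8012 to 0.08882.

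Genes farther from Stem in SecPDG than in AbsPro (167 of 230 and 266 of 276) numbered 162 to 185 and 262 to 268 under library totals, without SecPDG 2 and with a pseudocount of 10, all chosen after seeing the data. The tuft genes were low, and Rgs13 and Gnat3 were at 0 in AbsPro. Gene totals were 16614350 to 22157285 in AbsPro and 15314543 to 18628984 in SecPDG, and the part of depth in these low values was not tested.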
